A study of Mus musculus with 8 samples.

Results

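Hepatic stellate cells and liver sinusoidal endothelial cells were followed through 9 marker genes among the 11784 genes listed for mouse liver. The 9 genes were looked up by symbol, and all 9 were listed. They were chosen with earlier results of these data known. Of these, 5 mark stellate cells and the collagen-rich matrix (Col1a1, Col3a1, Dcn, Lrat and Des) and 4 mark endothelium (Pecam1, Stab2, Kdr and Clec4g). Livers came from 8 male C57BL/6J mice that were switched at 9 weeks of age to amino acid defined diets. The diets were Control (TD.140711) for 4 mice and Low AA (TD.140712), in which carbohydrate largely replaced the missing amino acids, for 4 mice. Both groups stayed on their diet for 4 months and were fasted overnight for about 16 hours before the liver was taken, so every value is from fasted liver. Whole-liver poly(A) RNA was sequenced, and the comparison asks how the supporting cells of the liver respond to a diet low in amino acids.

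Stellate cells lie between the hepatocytes and the sinusoid wall. They store retinol as retinyl esters, and when activated they lose these stores and lay down fibrillar collagen, the process behind liver fibrosis. Sinusoidal endothelial cells line the same space with a fenestrated wall, clear matrix fragments and other waste from the blood through scavenger receptors, and depend on vascular endothelial growth factor (VEGF) signalling. In whole liver both cell types are a minority, and a lower value can mean fewer cells of a type or less RNA per cell, which cannot be told apart here.

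The RefSeq promoter table (GRCm38.p6) held an entry for 6 of the 9 genes, Col3a1, Lrat, Des, Stab2, Kdr and Clec4g, and none for Col1a1, Dcn and Pecam1. The 250 bases before the transcription start are shown for Col3a1, the fibrillar collagen chain with an entry. Those of Lrat, a gene of retinyl ester storage, and of Clec4g, a lectin gene typical of sinusoids, are also shown. They are written 5′ to 3′ on the strand of the gene, and capitals mark matches on either strand to the motifs searched. These were the TATA box, spelled TATAAA, then the CCAAT box by its own letters, and the GC box with the spelling GGGCGG.
Col3a1, chr1:45311288-45311537, forward strand: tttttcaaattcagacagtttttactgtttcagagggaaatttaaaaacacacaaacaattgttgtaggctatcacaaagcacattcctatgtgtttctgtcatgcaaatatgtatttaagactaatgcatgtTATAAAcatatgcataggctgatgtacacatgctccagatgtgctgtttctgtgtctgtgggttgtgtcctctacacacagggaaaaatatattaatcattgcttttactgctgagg
Lrat, chr3:82903975-82904224, reverse strand: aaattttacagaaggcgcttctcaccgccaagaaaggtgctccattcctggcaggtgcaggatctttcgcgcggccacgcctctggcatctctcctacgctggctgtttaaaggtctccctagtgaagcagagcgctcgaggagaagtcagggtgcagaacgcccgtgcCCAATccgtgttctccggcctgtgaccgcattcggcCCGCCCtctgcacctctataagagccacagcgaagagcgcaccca
Clec4g, chr8:3720652-3720901, reverse strand: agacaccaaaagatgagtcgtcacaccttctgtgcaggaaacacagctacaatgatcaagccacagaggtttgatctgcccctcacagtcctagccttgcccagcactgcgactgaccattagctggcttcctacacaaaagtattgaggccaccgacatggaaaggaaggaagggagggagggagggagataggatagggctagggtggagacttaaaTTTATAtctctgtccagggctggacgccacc
Col3a1 and Clec4g each held 1 TATA box match, which 12.4% of 32851 promoter windows of this length hold, and in Clec4g it lay on the opposite strand. Lrat held 1 match to the CCAAT box and, on the opposite strand, 1 to the GC box. The CCAAT box letters were in 33.9% and those of the GC box in 32.7% of all windows. Des and Kdr held 2 GC box matches each, and Stab2 held none of the 3 motifs. A match describes letters in the window and no more.

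The values are read counts that the authors scaled between mice and rounded, called scaled read counts below. Their totals were 28361406 to 29485422 for the Control mice, and those of the Low AA mice 27876664 to 30799385. Hepatocyte markers were all present (12 of 12 listed), as were Kupffer cell markers (11 of 11). Control mouse F2212 stood apart in its non-hepatocyte RNA, with 36587 scaled read counts of the pancreatic elastase gene Cela1 against 130 to 288 in the other 7 mice. Cela1 was the 1 listed of 9 pancreatic acinar genes looked up. Of 4 listed leukocyte genes, F2212 was highest for Cd79a (106 against 16 to 48), Cd79b (98 against 17 to 55) and S100a9 (130 against 19 to 51), but not for Ptprc. Without F2212 the log2 fold changes (Low AA minus Control) of the members were -1.24 for Col1a1, -0.52 for Col3a1, -0.077 for Dcn, -0.058 for Lrat and -0.14 for Des. Those of the endothelial members were 0.16 for Pecam1, 0.066 for Stab2, 0.13 for Kdr and 0.11 for Clec4g, and Clec4g alone changed sign against the value with all 8 mice. Diets were compared by limma after log2(value + 1) over all 11784 genes, with Benjamini-Hochberg adjustment, and negative values are lower on the Low AA diet. Adding 1 draws the fold changes of weakly expressed genes towards 0. The study housed its mice in groups, and the labels do not say which of them shared a cage. Each mouse was taken as an independent replicate, which cage mates may not be.

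None of the 9 genes passed an adjusted p under 0.05 in limma, where 47 of all genes (0.399%) did, 35 of them (0.297%) lower on the Low AA diet. Of the 9 genes, 1, Col1a1, had an unadjusted p under 0.05 in limma, where 11.8% of all genes did. Col1a1 was also the 1 gene whose values did not overlap between diets. Over all genes 6.81% did not overlap, 3.55% lower and 3.26% higher on the Low AA diet. With 9 genes, a count of 1 is near these shares. All 5 stellate and matrix genes had a log2 fold change below 0, with a median of -0.29, and 3 of the 4 endothelial genes one above 0, with a median of 0.11. Over all genes tested 49.5% were below 0, and the median was 0.00. The stellate median is the value of Des, which was -0.14 without F2212. Dcn, at -0.02, and Lrat, at -0.03, lay close to 0 and changed sign with some mice left out.

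**Figure D1:**
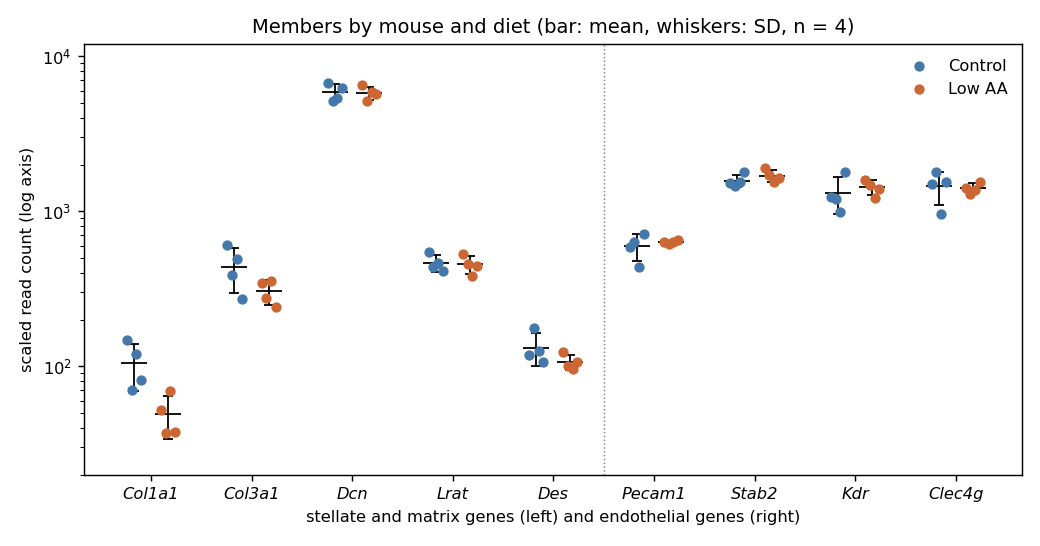
Scaled read counts (log axis) of the 9 genes in each mouse, Control in blue and Low AA in orange, with the mean and SD of 4 mice per diet. Col1a1 lies lower in all 4 Low AA mice (37 to 69) than in the Control mice (70 to 147), while each endothelial gene overlaps.

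Col1a1 encodes the alpha-1 chain of type I collagen, the main fibrillar collagen of scar tissue. The gene (ENSMUSG00000001506.10) lies on chromosome 11 from 94936224 to 94953042, and its longest annotated transcript has 51 exons. Col1a1 had 147, 70, 120 and 82 scaled read counts in Control mice F129, F2212, F7111 and F2110. In Low AA mice H1126, H828, H817 and H1315 it had 52, 37, 69 and 38. The diets were separated by 1 scaled read, between F2212 at 70 and H817 at 69, a gap smaller than the counting error of values of this size. The means were 105 ± 35.3 on the Control diet and 49.0 ± 15.0 on the Low AA diet (SD, n = 4 each). The log2 fold change was -1.07 (standard error 0.28, 95% interval -1.68 to -0.45, limma adjusted p = 0.148), or 47.8% of the Control level. The exact permutation test, two-sided, gave p = 0.0286, the smallest that 4 mice against 4 allow. Any gene without overlap gives this p, so it restates the separation above, which 6.81% of all genes shared. With each mouse left out in turn the log2 fold change ran from -1.24 to -0.88 and the limma adjusted p from 0.0985 to 0.310. Without F2212 it was -1.24 (limma adjusted p = 0.0985).

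Col3a1 encodes the type III collagen chain, which forms the fine reticular fibres of the sinusoid wall together with type I collagen. The gene (ENSMUSG00000026043.18) lies on chromosome 1 from 45311538 to 45349706. Its scaled read counts were 603, 389, 490 and 274 in the Control mice F129, F2212, F7111 and F2110, and 344, 276, 357 and 243 in the Low AA mice H1126, H828, H817 and H1315. F2110 was low among the Control mice and lay inside the Low AA range, while the other 3 Control mice lay above it. The means were 439 ± 141 and 305 ± 54.5 (SD, n = 4 each). A difference of -0.48 on the log2 scale (standard error 0.23, 95% interval -0.99 to 0.03) did not pass (limma adjusted p = 0.456; exact permutation test, two-sided, p = 0.143). Without F2110 it was -0.69 and the diets did not overlap (limma adjusted p = 0.224), and without F129, the highest mouse, it was -0.31 (limma adjusted p = 0.696). Within a mouse, Col1a1 amounted to 15.1%, 13.4%, 19.3% and 15.6% of Col3a1 in the Low AA mice and to 24.4%, 18.0%, 24.5% and 29.9% in the Control mice. Only F2212 lay inside the Low AA range of this ratio.

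Dcn encodes decorin, a small proteoglycan that binds collagen fibrils and transforming growth factor beta. The gene (ENSMUSG00000019929.16) lies on chromosome 10 from 97479609 to 97518143. It had 6748, 5165, 5399 and 6248 scaled read counts in F129, F2212, F7111 and F2110 and 6517, 5133, 5841 and 5748 in H1126, H828, H817 and H1315. The 2 diets covered nearly the same range. Dcn had a log2 fold change of -0.02 (standard error 0.12, 95% interval -0.27 to 0.24, limma adjusted p = 0.978). Per kilobase of its longest transcript Dcn had the highest level of the 9 genes, 1255 ± 157 scaled read counts on the Control diet, and Col1a1 the lowest, 17.7 ± 5.96 (SD, n = 4 each). The ratio of Col1a1 to Dcn within a mouse did not overlap between diets, at 1.31% to 2.22% (Control) and 0.661% to 1.18% (Low AA).

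Lrat encodes lecithin-retinol acyltransferase, which makes the retinyl esters that quiescent stellate cells store. The gene (ENSMUSG00000028003.6) lies on chromosome 3 from 82892579 to 82903973. It had 543, 438, 462 and 414 scaled read counts in F129, F2212, F7111 and F2110 and 533, 456, 384 and 445 in H1126, H828, H817 and H1315. F129 and H1126 were the highest of their diets, and the ranges overlapped. The log2 fold change was -0.03 (standard error 0.13, 95% interval -0.32 to 0.26, limma adjusted p = 0.952). The lower end of the interval for Lrat was -0.32 and the upper end of that for Col1a1 -0.45. A test of the difference between the genes was not made. The ratio of Col1a1 to Lrat was 16.0% to 27.1% (Control) and 8.11% to 18.0% (Low AA), where H817 alone reached the Control range.

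Des encodes desmin, the intermediate filament of muscle that rodent stellate cells also carry. The gene (ENSMUSG00000026208.9) lies on chromosome 1 from 75360329 to 75368579. It had 119, 177, 126 and 106 scaled read counts in F129, F2212, F7111 and F2110 and 124, 100, 96 and 106 in H1126, H828, H817 and H1315. F2212 stood above the other 7 mice, which lay between 96 and 126. The log2 fold change was -0.29 (standard error 0.18, 95% interval -0.68 to 0.11, limma adjusted p = 0.592), and without F2212 it was -0.14 (limma adjusted p = 0.788). The same mouse had the highest values of 5 of the 7 listed myofibroblast and smooth muscle genes. Its Acta2, smooth muscle actin, was 406 against 24 to 119 in the other 7 mice, and its Myh11, smooth muscle myosin, was 297 against 49 to 138. The summed level of the 7 genes was 9437 to 10816 (Control) and 8346 to 11216 (Low AA), but Cald1, caldesmon, which many cell types express, made up most of it, with 7329 to 10083 per mouse. F2212, at 10242, did not have the highest sum. None of the 7 genes was at 0 in any mouse. The part of smooth muscle RNA in the Des value was not tested.

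**Figure D2:**
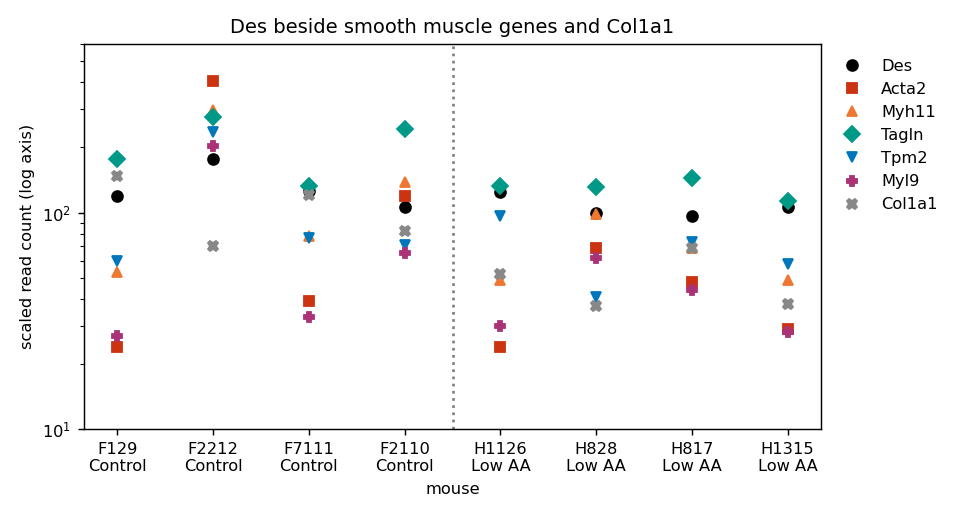
Scaled read counts (log axis) of Des, of 5 smooth muscle genes and of Col1a1 in each mouse, Control on the left and Low AA on the right of the dotted line. Control mouse F2212 has the highest Des (177) together with the highest Acta2 (406) and Myh11 (297), but the lowest Control value of Col1a1 (70).

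Pecam1 encodes CD31, an adhesion molecule at the junctions of all endothelium, which leukocytes and platelets also carry. The gene (ENSMUSG00000020717.19) lies on chromosome 11 from 106654217 to 106750628. It had 590, 631, 437 and 716 scaled read counts in F129, F2212, F7111 and F2110 and 636, 620, 637 and 649 in H1126, H828, H817 and H1315. The Low AA mice were nearly equal, with an SD of 1.87% of the mean against 19.7% in the Control mice, and all of them lay inside the Control range. Pecam1 had a log2 fold change of 0.12 (standard error 0.14, 95% interval -0.20 to 0.44, limma adjusted p = 0.811). Without F7111, the lowest mouse, it was -0.02.

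Kdr encodes VEGF receptor 2, the receptor through which VEGF-A acts on endothelium. The gene (ENSMUSG00000062960.10) lies on chromosome 5 from 75932827 to 75978458. It had 1231, 1196, 993 and 1803 scaled read counts in F129, F2212, F7111 and F2110 and 1600, 1489, 1221 and 1397 in H1126, H828, H817 and H1315. Control mice were both the lowest and the highest, F7111 and F2110. Kdr had a log2 fold change of 0.16 (standard error 0.17, 95% interval -0.22 to 0.53, limma adjusted p = 0.792). It was 0.32 without F2110 (limma adjusted p = 0.400) and 0.04 without F7111, so these 2 Control mice set its size.

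Stab2 encodes stabilin-2, a scavenger receptor of sinusoidal endothelium that takes up hyaluronan. The gene (ENSMUSG00000035459.18) lies on chromosome 10 from 86841198 to 87008025. It had 1512, 1448, 1549 and 1789 scaled read counts in F129, F2212, F7111 and F2110 and 1890, 1705, 1537 and 1639 in H1126, H828, H817 and H1315. Of the 9 genes it varied least within the diets, with a residual SD of 0.13 on the log2 scale, and its ranges overlapped. The log2 fold change was 0.10 (standard error 0.10, 95% interval -0.13 to 0.34, limma adjusted p = 0.771). Without H1126, the highest mouse, it was 0.051, and without F2110 it was 0.17.

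Clec4g encodes LSECtin, a C-type lectin of liver and lymph node sinusoidal endothelium. The gene (ENSMUSG00000074491.9) lies on chromosome 8 from 3707064 to 3720651. It had 1500, 1793, 960 and 1544 scaled read counts in F129, F2212, F7111 and F2110 and 1423, 1287, 1379 and 1544 in H1126, H828, H817 and H1315. The Low AA mice lay inside the Control range. Clec4g had a log2 fold change of -0.01 (standard error 0.17, 95% interval -0.39 to 0.37, limma adjusted p = 0.991). Its sign changed with 5 of the 8 mice when each was left out, and without F2212, the highest mouse, it was 0.11.

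**Figure D3:**
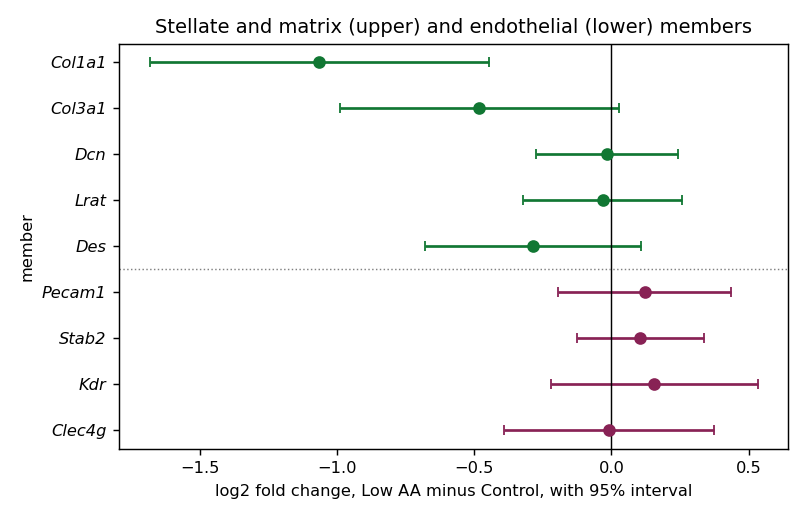
Log2 fold change (Low AA minus Control) of the 9 genes with the 95% interval of limma, stellate and matrix genes in green and endothelial genes in purple. The interval of Col1a1 (-1.68 to -0.45) is the 1 interval that does not reach 0, and no gene passed after adjustment over all genes.

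Per kilobase, the Control levels followed the order Dcn, Clec4g, Kdr, Stab2, Pecam1, Lrat, Col3a1, Des and Col1a1. Clec4g stood at 1005 ± 243 scaled read counts per kilobase, Kdr at 220 ± 58.7, Stab2 at 191 ± 18.1 and Pecam1 at 172 ± 33.9 (SD, n = 4 each). Dcn and Clec4g overlapped between mice, and so did Kdr, Stab2 and Pecam1. Lrat at 86.8 ± 10.5 and Col3a1 at 78.9 ± 25.3 overlapped, as did Col3a1 and Des, at 43.6 ± 10.3 (SD, n = 4 each). Col1a1 overlapped with none of the others on the Control diet. On the Low AA diet Dcn lay above Clec4g and Col3a1 above Des in every mouse. Stab2, at 206 ± 18.1, overlapped there with Kdr and with Pecam1, at 185 ± 3.46, and Lrat, at 84.9 ± 11.4, lay above Col3a1, at 54.8 ± 9.79, in every mouse (SD, n = 4 each). The longest annotated transcript need not be the one the liver uses, so these levels are approximate.

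Across mice, the endothelial pairs had a higher median correlation than the stellate pairs, with overlapping ranges (-0.05 to 0.87 and -0.35 to 0.82). After the mean of each diet was subtracted, 5 of the 6 endothelial pairs correlated positively over the 8 mice, with a median Pearson r of 0.63, led by Pecam1 with Clec4g at 0.87 and Stab2 with Kdr at 0.80. Stab2 and Clec4g were the exception, at -0.05. Of the 10 stellate and matrix pairs 8 were positive, with a median of 0.26, and the pair of collagen chains, Col1a1 and Col3a1, was highest at 0.82. Des went against Col1a1, at -0.35, and against Dcn, at -0.32. Between the groups 7 of 20 pairs were positive, with a median of -0.22 and the lowest value for Col3a1 with Kdr, at -0.65. Pecam1 ran from 437 to 716 in the Control mice but only from 620 to 649 in the Low AA mice, so its coefficients rest mostly on the Control mice. All coefficients describe 8 libraries that share their scaling, and no test was made of them.

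The mean z score of the 5 stellate and matrix genes was 0.39 ± 0.62 on the Control diet and -0.39 ± 0.55 on the Low AA diet, and that of the 4 endothelial genes -0.24 ± 1.10 and 0.24 ± 0.40 (SD, n = 4 each). The stellate mean minus the endothelial mean was 1.53, 0.27, 2.01 and -1.28 in F129, F2212, F7111 and F2110 and -0.32, -0.99, -0.26 and -0.96 in H1126, H828, H817 and H1315. The Low AA mice were all below 0 and close together, and the Control mice were spread from F7111, the highest of the 8, to F2110, the lowest. The difference between diets, -1.27, was -0.63 without F7111 and -1.93 without F2110. It is a description of genes chosen with earlier results known and carries no test.

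**Figure D4:**
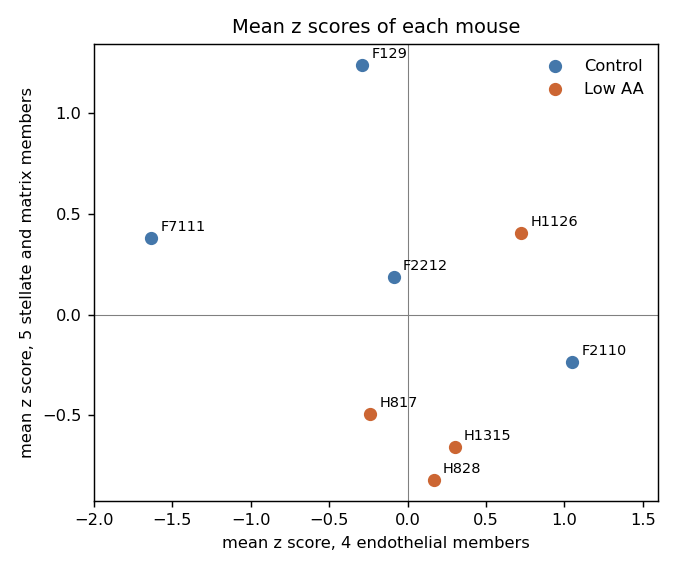
Mean z score of the 5 stellate and matrix genes against that of the 4 endothelial genes, 1 point per mouse, Control in blue and Low AA in orange. F7111 lies far to the left (endothelial mean -1.63) and F129 at the top (stellate mean 1.24), and H1126 is the 1 Low AA mouse with a stellate mean above 0 (0.40).

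Single Control mice thus carried much of the spread. F7111 was the lowest of the 8 mice for 3 of the 4 endothelial members and for 17 of 36 further endothelial genes (47.2%), against 19.3% of all genes. F129 was the highest for 4 of the 5 stellate and matrix members and for 14 of 26 further genes of that kind (53.8%), against 10.9% of all genes.

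None of the further stellate and matrix genes passed. Of 26 genes, all listed, 18 had a log2 fold change below 0, the median was -0.11, and 4 had an unadjusted p under 0.05 in limma, all of them lower (smallest limma adjusted p = 0.196). Over all genes 11.8% had such a p, 790 of these 1395 genes lower. The 4 were Col1a2, Col6a1, Col6a2 and Vim, named after their values were seen. Col1a2, the partner chain of Col1a1 in type I collagen, had 379, 266, 360 and 252 scaled read counts in F129, F2212, F7111 and F2110 and 263, 168, 212 and 192 in H1126, H828, H817 and H1315. Only H1126 reached the Control range. On the log2 scale it differed by -0.58 (standard error 0.18, limma adjusted p = 0.220). Col6a2, a chain of the beaded filaments of type VI collagen, had -0.70 (limma adjusted p = 0.196), and Vim, the filament vimentin of mesenchymal cells, had -0.45 (limma adjusted p = 0.270). The rest of the list lay on both sides of 0. Reln, the glycoprotein reelin, had a log2 fold change of 0.16, and Lhx2, a transcription factor of quiescent stellate cells, 0.26. Hgf, hepatocyte growth factor, had 0.44 (limma adjusted p = 0.644). Pdgfrb, a receptor for platelet-derived growth factor, had -0.34, Cygb, the globin cytoglobin, -0.26 and Pdgfra -0.01.

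Collagen genes as a family, all 21 listed chains by symbol, a list added after values had been seen, went both ways. Of these, 15 were below 0 and 6 above, the median was -0.20, and none passed (smallest limma adjusted p = 0.116). Besides Col1a1, the chain without overlap was Col27a1, with 174 to 354 scaled read counts on the Control and 128 to 172 on the Low AA diet (log2 fold change -0.92, limma adjusted p = 0.116). Over all genes 6.81% did not overlap. Col4a1, the basement membrane collagen, had 0.20, and Col12a1 had 0.75 (limma adjusted p = 0.280). Col11a2 had the highest log2 fold change of the list, 1.15 (limma adjusted p = 0.227). Its scaled read counts were low, 12 to 38 on the Control and 36 to 80 on the Low AA diet. The lower values were therefore not shared by every collagen.

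None of the listed genes that fold, process and cross-link collagen passed. Of the 16 genes listed, 9 were below 0, with a median of -0.08. Loxl1, a lysyl oxidase that cross-links elastin and collagen, did not overlap, at 46.8 ± 10.9 and 24.8 ± 2.63 scaled read counts on the Control and Low AA diets (SD, n = 4 each; log2 fold change -0.87, limma adjusted p = 0.142). It was the 1 gene of the 16 without overlap, against 6.81% of all genes. Serpinh1, the collagen chaperone HSP47, had -0.10. Of the prolyl 4-hydroxylase subunits, P4ha2 had -0.42 (limma adjusted p = 0.420) and P4hb 0.09. Pcolce and Pcolce2, enhancers of procollagen cleavage, had -0.33 and 0.39. Among 9 genes of matrix turnover 6 were below 0, with a median of -0.35. Of the 9, 3 did not overlap, against 6.81% of all genes. The list was chosen with earlier results known, and no test was made of this count. Mmp19 and Mmp15, matrix metalloproteinases, had log2 fold changes of -0.61 and -0.62 (limma adjusted p = 0.0989 and 0.171). Mmp14, a membrane-bound collagenase, was at 1194 ± 121 and 1772 ± 317 (SD, n = 4 each), with 0.56 (limma adjusted p = 0.133). Metalloproteinases thus lay on both sides of 0.

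In the TGF-beta and platelet-derived growth factor pathways, which drive stellate cell activation, 10 of 16 listed genes were below 0, with a median of -0.13, and none passed. Ltbp3, which holds TGF-beta latent in the matrix, and Pdgfa, a ligand of the receptor Pdgfra, did not overlap, with -0.74 and -0.58 (limma adjusted p = 0.192 and 0.165). These were 2 of the 16 genes, against 6.81% of all genes, and no test was made of this count. Tgfb1 had 0.31 and Ctgf, a matrix-associated TGF-beta target, -0.13. Acta2, the usual marker of activation, had -1.06, a value that rests on F2212 and ran from 24 to 119 in all other mice (limma adjusted p = 0.651). Of 12 listed retinoid partners of Lrat 4 were below 0, with a median of 0.11. Ces1d, a carboxylesterase that hydrolyses lipid and retinyl esters, did not overlap, with 0.84 (limma adjusted p = 0.0754). It was the 1 gene of the 12 without overlap, against 6.81% of all genes. Hepatocytes also make it, and its scaled read counts were 9646 to 28130, against 384 to 543 for Lrat. Of the 12, 3 had an unadjusted p under 0.05 in limma, all higher: Ces1d, Plin2 (0.52) and Pnpla2 (0.38). The cells behind these values were not tested.

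Further endothelial genes also lay close to 0. Of 36 genes, all listed, 26 were above 0, the median was 0.08, and the log2 fold changes ran from -0.29 to 0.33. Vwf, von Willebrand factor, which marks larger vessels more than sinusoids, was the 1 gene without overlap, at 229 ± 11.8 and 193 ± 11.9 scaled read counts on the Control and Low AA diets (SD, n = 4 each; log2 fold change -0.25, limma adjusted p = 0.400). Among all genes 6.81% did not overlap. The sinusoidal scavenger receptors Stab1 and Mrc1 had 0.03 and 0.28, and Lyve1, the hyaluronan receptor, had -0.04. Bmp2 and Bmp6, through which sinusoidal endothelium acts on hepatocyte hepcidin, had 0.13 and 0.16, and Wnt2 and Rspo3, signals for pericentral hepatocytes, had 0.33 and 0.08. None of these passed (smallest limma adjusted p in the list = 0.400).

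On the ligand side of Kdr, Vegfa had 3243, 3117, 3976 and 3747 scaled read counts in F129, F2212, F7111 and F2110 and 3588, 3448, 3752 and 3524 in H1126, H828, H817 and H1315, with 0.03 between the diets on the log2 scale (limma adjusted p = 0.945). Of the other VEGF ligands, Vegfc had 0.07, Vegfb -0.18 and Figf, VEGF-D, -0.58. With the receptors Flt1 and Flt4, the co-receptors Nrp1 and Nrp2, and the Notch pathway genes Dll4 and Notch1, 10 genes were listed. Of these 10, 7 were above 0, and Flt1, Flt4 and Nrp1 are also among the 36 endothelial genes. Nrp2, a co-receptor for semaphorins and VEGF-C, was the 1 gene without overlap (0.38, limma adjusted p = 0.446), against 6.81% of all genes. Of the 13 basement membrane genes 9 were above 0. Nid2, nidogen-2, was higher without overlap, at 96.5 ± 22.5 and 173 ± 39.7 (SD, n = 4 each; log2 fold change 0.84, limma adjusted p = 0.149), and Agrn, the proteoglycan agrin, lower, with -0.49 (limma adjusted p = 0.148). Non-overlap held for 6.81% of all genes, and no test was made of its count here.

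**Figure D5:**
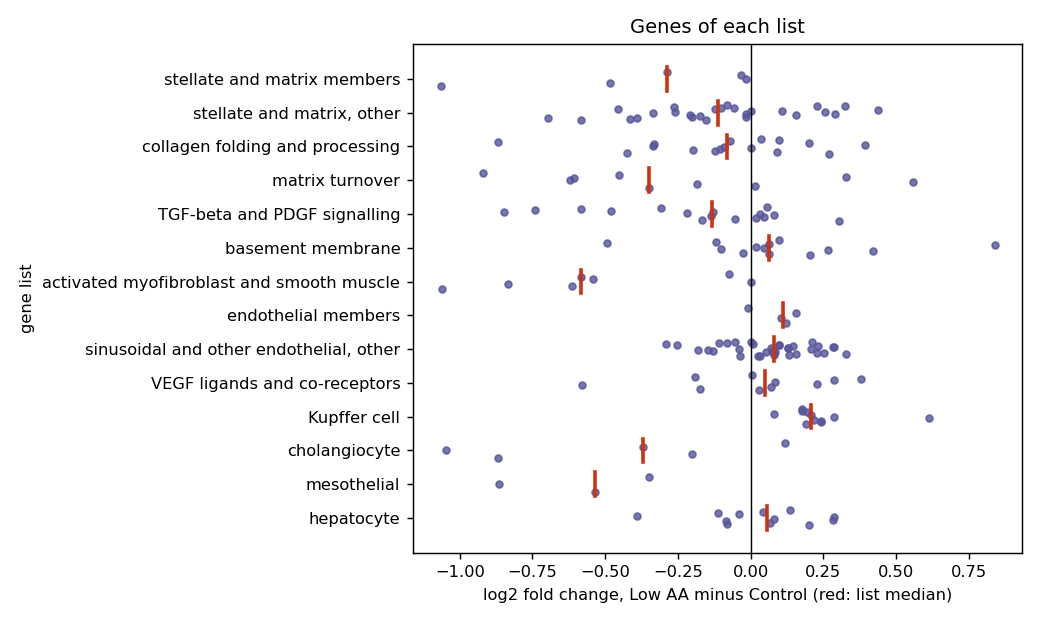
Log2 fold change (Low AA minus Control) of each gene in 14 lists, with the list median in red. The stellate and matrix members have a median of -0.29, the value of Des, with Dcn and Lrat close to 0. The endothelial members (0.11) lie slightly right of 0, and the smooth muscle (-0.58) and mesothelial (-0.53) lists lie furthest left. Control mouse F2212 had the highest value of 5 of the 7 smooth muscle genes. Myl9, whose log2 fold change is the median of that list, had 204 scaled read counts in F2212 and 27 to 65 in the other 7 mice.

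No marker of other cell types passed. The 3 listed mesothelial genes and 4 of 5 listed cholangiocyte genes were below 0, with medians of -0.53 and -0.37 (smallest limma adjusted p = 0.495 and 0.283). Their summed levels were 120 to 279 and 1430 to 2626 scaled read counts on the Control diet, against 85 to 176 and 1117 to 1730 on the Low AA diet, and these ranges overlapped. No marker of either list was at 0 in any mouse. All 4 listed blood genes were below 0, with a median of -0.49, and F2212 had the highest value of each. Their summed levels overlapped, at 7206 to 27464 scaled read counts on the Control and 9211 to 13541 on the Low AA diet. Alas2, the haem synthesis enzyme of red cells, was the 1 gene of the 4 without overlap (limma adjusted p = 0.266), against 6.81% of all genes. All 11 Kupffer cell genes were above 0, with a median of 0.21 (smallest limma adjusted p = 0.418), and the 12 hepatocyte genes had a median of 0.06. The part of these cells, of capsule or of portal tissue in the Col1a1 and Col3a1 values was not tested.

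For each member, the gene whose values followed it most closely over the 8 mice, after diet means were subtracted, was looked up among the 9697 genes with a mean of at least 100. For Col1a1 this was Postn (r = 0.97), for Col3a1 Mkl1 (0.99), for Dcn Clpx (0.99), for Lrat Hmgb1 (0.98) and for Des Gm5506 (0.99). For Pecam1 it was Chmp2b (0.98), for Stab2 Zc3hav1 (0.996), for Kdr Eltd1 (0.97) and for Clec4g Unc93b1 (0.99). Postn, periostin, had 323, 228, 269 and 244 scaled read counts in F129, F2212, F7111 and F2110 and 400, 331, 441 and 349 in H1126, H828, H817 and H1315. It thus followed Col1a1 within each diet while lying higher in the Low AA mice, where Col1a1 lay lower. The closest of so many genes over 8 mice is high for any pattern, and these values are a description.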

How the data were processed

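Liver RNA of 8 mice was compared between the diets, with each mouse as 1 replicate. The authors deposited for each gene a signal per mouse, a read count scaled between mice and rounded, with their own fold ratio and FDR (a q-value), which were not used. The submitters' processing notes name STAR 2.5.0a, RSEM 1.2.6, edgeR 3.10.5 and build mm10 without giving their roles. Every gene had at least 28 in 3 or more mice. Genes of low expression thus appear to have been removed before deposit. The filter used here (at least 1 in 4 or more mice) removed 0. Values were analysed as log2(value + 1) in limma 3.58.1 (R 4.3.3) with a mean-variance trend, tested on simulated data. Single genes were also compared by exact permutation of the mice (scipy 1.17.1). Count models need raw counts and were not used. The z scores were taken per gene over the 8 mice. Exact depth is unknown. Members and lists were chosen with earlier results of these data known. Named genes were the members, called list genes (there were none), up to 3 genes of each list without overlap, by size, and the 3 genes closest to each member, of which the first is given. Other genes were named after their values were seen. Positions are from GENCODE vM21 (GRCm38, the assembly also called mm10), and older symbols were matched through RefSeq synonyms.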

Additional observations from a re-analysis of the deposited data

Results flagged for a closer look

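In 4 of 48 groups of 4 mice, 1 mouse lay far from the other 3, and chance gives about 1 in 20. None of the 4 was a member. For Nid2, Control mouse F2212 lay below the other Control mice (gap over range 0.899), at 63 scaled read counts against 104 to 110. For Pdgfa, Control mouse F7111 lay below (0.839), at 68. For Nrp2, F7111 lay below the other Control mice (0.903) and H1126 above the other Low AA mice (0.873), at 611 and 1456.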

How the results depend on the processing

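No member was called in any of the 8 other settings or with any mouse left out. The number of all genes called was 30 without a mean-variance trend, 19 among the 8000 genes with the highest mean, and 16 to 77 with a mouse left out. That filter removes Col1a1 and Des by construction, which leaves 0 members with an unadjusted p under 0.05, 0 without overlap and a stellate median of -0.033. With a mouse left out, 1 to 3 members had an unadjusted p under 0.05 (3 without F2110: Col1a1, Col3a1 and Kdr) and 1 to 2 did not overlap. Fewer mice make non-overlap easier, and the shares over all genes were not counted with a mouse left out. The log2 fold changes then ran from -0.077 to 0.052 for Dcn, -0.11 to 0.045 for Lrat, -0.19 to 0.11 for Clec4g and -0.018 to 0.22 for Pecam1, changing sign, while those of Col1a1, Col3a1, Des, Kdr and Stab2 kept theirs. The stellate median ran from -0.38 to -0.14 (without F2212) and the endothelial median from 0.01 (without F7111) to 0.19. Scaling to equal totals or upper quartiles reversed no member. No paired analysis was possible because the labels share no replicate numbers between the diets. Raw counts were not used here, so counting error cannot be set apart from the spread between mice, and it weighs most on Col1a1, the lowest of the 9 genes.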
